A study of Rattus norvegicus and Mus musculus with 12 samples.

Results

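The genes described here are 53 genes of cell division that build the mitotic spindle, attach and separate the chromosomes and cut the daughter cells apart. They were chosen by gene name from the rat and mouse tables and grouped by structure into 9 classes. All 53 were in the mouse table and 51 in the rat table, which held no row named Ccnb2 or Nek2. Among all genes with enough counts to be tested, they were 51 of 13303 in rat and 53 of 14774 in mouse. All members with a row passed the filter on low counts, and 51 could be tested in both species. After IL-1β, nearly all of them were higher in rat chondrocytes and all of them were lower in mouse chondrocytes.

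The libraries came from articular chondrocytes at passage 1, isolated from the cartilage of newborn SD rats and C57BL/6 mice (24 h old). The cells of the RC (rat control) and MC (mouse control) groups were not stimulated. Those of the RM (rat model) and MM (mouse model) groups received 20 ng/ml IL-1β, an inflammatory cytokine used to model osteoarthritis in culture, for 24 h. Each group held 3 libraries from independent samples, so 12 in all. How many animals a sample held is not given in the sources used here, so P values measure the spread between samples. The strain labels of the mouse libraries run from C57BL/6 to C57BL/9, whereas the methods of the study name C57BL/6 for all mice.

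Mitosis begins when Cdk1, bound to a B-type cyclin, phosphorylates many proteins at once. Condensin then compacts the chromosomes, kinetochores form on the centromeres, and kinesin motors and other microtubule proteins shape the spindle. The spindle checkpoint holds the cell until every kinetochore is attached, after which the anaphase-promoting complex releases the sister chromatids and a contractile ring divides the cell. Most of these genes are transcribed only in cycling cells, late in the cell cycle. The DREAM and MuvB complexes and the factors Foxm1 and Mybl2 act on them through the CHR element (cell cycle genes homology region), and NF-Y binds their CCAAT boxes. In cartilage these genes mark proliferating chondrocytes, which are few in adult tissue and many in culture of newborn cells.

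Both elements were searched on either strand in the rat promoters listed by RefSeq (build GRCr8), as a window from 250 bases before to 50 bases after each gene start. Of the 53 members, 45 were matched to a promoter. The CHR letters TTTGAA or TTCGAA were in 35 of the 45 (77.8%), against 19.7% of all 33469 promoters and 13.5% of the 9566 promoters of genes tested in rat. CCAAT was in 36 of the 45 (80.0%), against 37.5% and 37.9%. The letters of both elements were in 30 of the 45 (66.7%), against 7.95% and 5.57%. The 120 bases before the start are printed for Cdk1, Cdc20, Prc1 and Ccnb2, which hold both elements there, and for Bub3 and Cdc25b, the 2 members whose change in rat did not pass the test. Capitals mark the CHR letters and the CCAAT box, which reads ATTGG where it lies on the other strand. TTCGAA reads the same on both strands, and the letters of the 2 elements may share bases.
rat Cdk1 (chr20:19265173-19265292, plus strand): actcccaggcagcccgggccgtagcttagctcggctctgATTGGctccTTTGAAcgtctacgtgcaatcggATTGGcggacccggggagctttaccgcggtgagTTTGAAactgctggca
rat Cdc20 (chr5:137255800-137255919, minus strand): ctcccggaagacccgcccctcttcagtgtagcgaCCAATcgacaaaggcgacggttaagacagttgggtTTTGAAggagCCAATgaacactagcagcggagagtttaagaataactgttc
rat Prc1 (chr1:143659361-143659480, plus strand): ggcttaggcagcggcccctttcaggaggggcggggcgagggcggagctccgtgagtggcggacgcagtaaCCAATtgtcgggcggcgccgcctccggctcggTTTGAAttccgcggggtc
rat Ccnb2 (chr8:79981659-79981778, minus strand): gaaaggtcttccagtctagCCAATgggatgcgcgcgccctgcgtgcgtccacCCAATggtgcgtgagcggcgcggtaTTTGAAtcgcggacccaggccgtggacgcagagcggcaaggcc
rat Bub3 (chr1:195760412-195760531, plus strand): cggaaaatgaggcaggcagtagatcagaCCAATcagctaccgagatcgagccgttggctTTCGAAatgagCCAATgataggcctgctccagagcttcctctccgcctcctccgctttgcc
rat Cdc25b (chr3:138860053-138860172, plus strand): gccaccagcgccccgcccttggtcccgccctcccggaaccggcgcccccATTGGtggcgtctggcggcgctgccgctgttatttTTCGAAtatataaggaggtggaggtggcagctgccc
In these stretches, the nearest TTTGAA began 16 bases before the start in Cdk1, 18 in Prc1, 43 in Ccnb2 and 51 in Cdc20. Bub3 and Cdc25b held TTCGAA, 61 and 36 bases before the start, and no TTTGAA in the window. TTTGAA was found in 33 members, in 26 of them within the 120 bases before the start. The 12 matched members without it included Bub3 and Cdc25b, and also Ccnb1, Kif11 and Kif20a, which rose in rat. Among the 59 matched promoters of a wider list of mitotic genes, 54.2% held TTTGAA or TTCGAA. Among the 31 matched promoters of DNA replication genes, 16.1% did. The matches are letters in a window, and binding of any factor was not measured here.

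Depth was 20169272 to 25903459 counted reads per library in rat and 16841580 to 20048322 in mouse. Chondrocyte markers were present in every library. Their summed FPKM was 5225–5885 in RC, 2072–2112 in RM, 2500–2549 in MC and 218.5–232.6 in MM, and all 11 fell in both species. FPKM is the count scaled to the length of the gene and to the total count of the library. The summed FPKM of the macrophage and leukocyte markers (6 in the rat table, 7 in mouse) was 16.5–19.3 in RC, 30.1–32.7 in RM, 5.62–6.06 in MC and 32.1–33.6 in MM. Ptprc, which marks all leukocytes, averaged 0.0559 FPKM in RC, 0.0453 in RM, 0.00322 in MC and 0.00104 in MM, too few counts to be tested. Of the 4 leukocyte markers tested in rat, Cd14 and Cd68 rose (log2 fold changes of 0.86 and 0.92), Csf1r fell (-1.20) and Tyrobp was not called. All 3 tested in mouse rose, with 3.96 for Cd14, 1.50 for Cd68 and 0.70 for Csf1r. Of the leukocyte, muscle and endothelial markers, Itgam had no count in MC and MM, Adgre1 and Myod1 none in MM, and Emcn and Myog none in RM. The fibroblast markers summed to 3850–4348 FPKM in RC, 2879–3016 in RM, 3272–3308 in MC and 1857–1868 in MM. Of these 7, 2 were called higher and 3 lower in rat, and 4 higher and 3 lower in mouse. Dcn (2.27 in rat, 4.99 in mouse) and Lum (2.01 and 2.61) rose in both species. Col1a1 (-0.90 and -1.48) and Col1a2 (-0.89 and -2.05) fell in both. The endothelial and muscle markers summed to at most 4.40 FPKM each in any library. Their part in the results on the mitotic genes was not tested.

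The rat control libraries differed in a way that touched the members. RC1 held more counts than RC2 on genes poor in G and C. Across the 51 members, the log2 ratio of scaled counts between RC1 and RC2 had a correlation of -0.883 with the G and C content of the mouse coding sequence of the same symbol. Over 8500 genes it was -0.695. The RM libraries also differed from each other in this way. Between RM2 and RM3 the correlation was -0.707 over the members and -0.49 over the 8500 genes. Between RM1 and RM2 it was 0.594 and 0.199, and between RM1 and RM3 -0.266 and -0.284. The change from RC to RM had a correlation of -0.70 with this content over the members and -0.266 over the same genes. In mouse the corresponding values for MC to MM were -0.261 and 0.036. These correlations describe genes measured in the same libraries. The plot of the rat members against base composition shows this. The main rat counts and medians of the members are therefore also given from a fit with an offset for base composition. Values of the other gene lists, and of the members split by promoter letters, are given without it. For all members together, the median is given from a fit with RC1 as the only control as well. Both fits were added after the data were seen, and in the second the lone RC1 is assumed to vary as the RM libraries did. What made RC2 and RC3 differ from RC1, or the RM libraries from each other, was not tested.

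**Figure D1:**
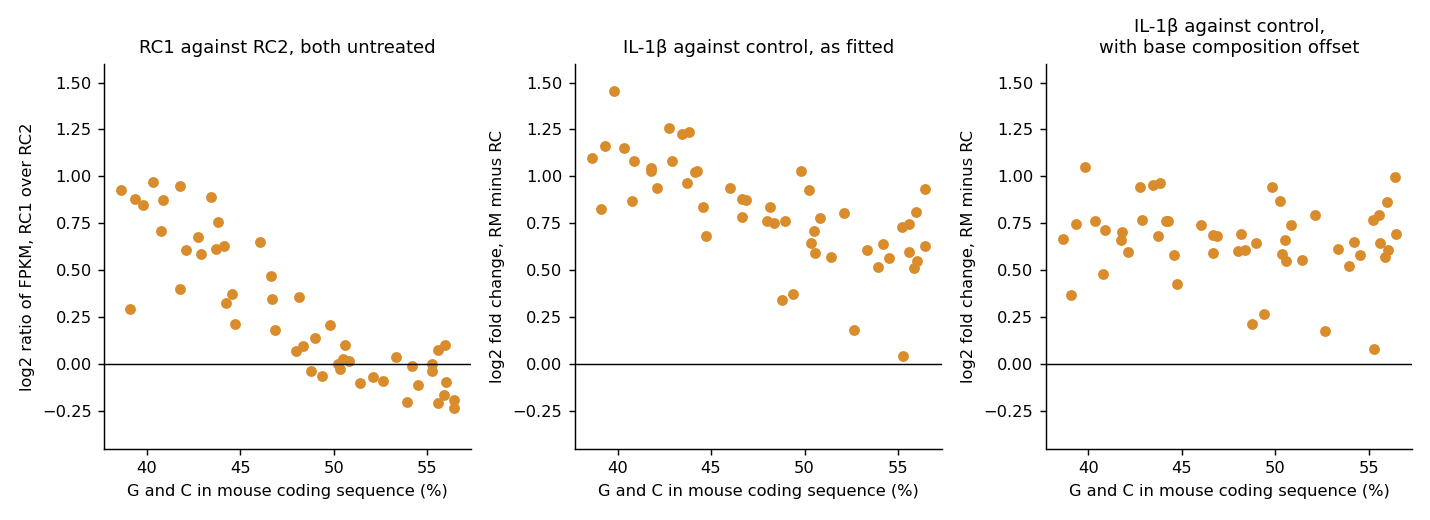
The horizontal axes give the G and C content (%) of the mouse coding sequence and each point is 1 of the 51 members in rat. The left panel gives the log2 ratio of FPKM between RC1 and RC2, the middle panel the log2 fold change from RC to RM, and the right panel the same with the offset. The slope seen on the left and in the middle is much weaker on the right, where all points stay above 0. The offset is built to remove such a slope over all genes.

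The members took opposite directions in the 2 species. Per 1000000 counted reads, the members together held 4622, 3745 and 4078 counts in RC1 to RC3, and 7134, 7783 and 7600 in RM1 to RM3. The mouse members held 3219, 3300 and 3398 in MC1 to MC3, and 730.4, 708.5 and 749.9 in MM1 to MM3. No model library overlapped a control library of its species. The mean was 1.81 times as high in RM as in RC (7506 ± 334.5 against 4148 ± 442.5, SD, n = 3). In mouse it was 4.53 times as high in MC as in MM (3306 ± 89.2 against 729.6 ± 20.7, SD, n = 3). An exact permutation test of 3 against 3 gave a two-sided P = 0.1 in each species, the smallest it allows. In bulk libraries, fewer dividing cells and less RNA per dividing cell cannot be told apart.

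**Figure D2:**
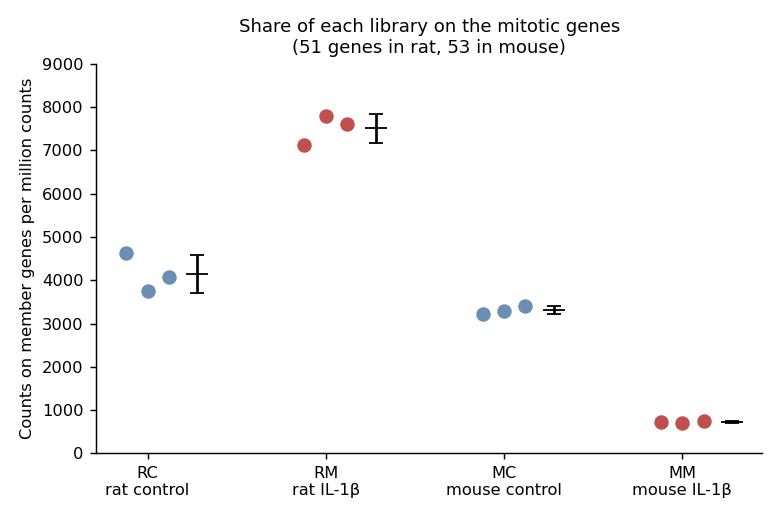
Counts on the member genes per 1000000 counted reads are on the vertical axis, with 1 point per library in each of the 4 groups and the mean ± SD (n = 3) beside the points. The RM libraries lie above the RC libraries and the MM libraries lie below the MC libraries.

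Gene by gene, 49 of the 51 members in rat rose with IL-1β and none fell, at an edgeR adjusted P under 0.05 over all genes tested. Of all 13303 genes tested, 18.3% were called higher and 16.8% lower. The median log2 fold change of the members was 0.81, against 0.01 over all genes, whose 5th and 95th percentiles were -0.92 and 0.93. Values ran from 0.04 for Cdc25b to 1.45 for Kif20b. In 50 members all 3 RM libraries lay above all 3 RC libraries, which held for 24.0% of all genes. With the base composition offset, 50 rose and the median was 0.67. Over all genes, that fit called 2295 of 11596 higher and 2876 lower. With RC1 as the only control, the median was 0.69. By the criteria of the study for a DEG (P under 0.05, log2 fold change beyond 0.85, FPKM of 1 or more in any library), 22 members were higher and none lower, against 4.64% and 3.90% of all genes. That count was 8 with the offset, which adjusts all 6 rat libraries. The share of all genes past these criteria was not computed with the offset.

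In mouse, all 53 members fell, and 37.7% of all 14774 genes tested were called lower and 37.4% higher. Their median log2 fold change was -1.96, against -0.02 over all genes, whose 5th and 95th percentiles were -2.19 and 2.38. Values ran from -3.17 for Cdca3 and -3.16 for Ccnb2 to -0.45 for Cks2. In all 53 the MM libraries lay below the MC libraries, as did those of 38.5% of all genes. By the criteria of the study, 50 members were lower and none higher, against 13.0% and 12.6% of all genes, and Cks2, Aurka and Bub3 did not reach the fold change. The offset left 53 lower with a median of -2.00.

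To compare the species, 1 fit over all 4 groups tested the result of subtracting the log2 fold change in rat from that in mouse. In this fit the 4 groups shared 1 estimate of the spread per gene, although rat libraries varied more than mouse libraries. For all 51 members the difference was negative and passed the test (lower in mouse), against 32.3% of the 10912 genes tested in both species, and 31.4% passed it in the other direction. The median difference was -2.86 on the log2 scale and -2.68 with the offset, ranging from -3.93 for Nuf2 to -0.68 for Bub3. Called by itself in each species, 49 members were higher in rat and lower in mouse, as were 7.29% of all genes, and 2 were lower in mouse without a call in rat. By the criteria of the study, 22 of the 51 took opposite directions, against 1.22% of all genes. This count cannot exceed the rat count, which was 8 with the offset. No member went the same way in both. Across the 51 members, the size of the change in rat and that in mouse had Pearson's r = 0.0661 and Spearman's rho = 0.205, given as a description over genes of the same libraries.

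**Figure D3:**
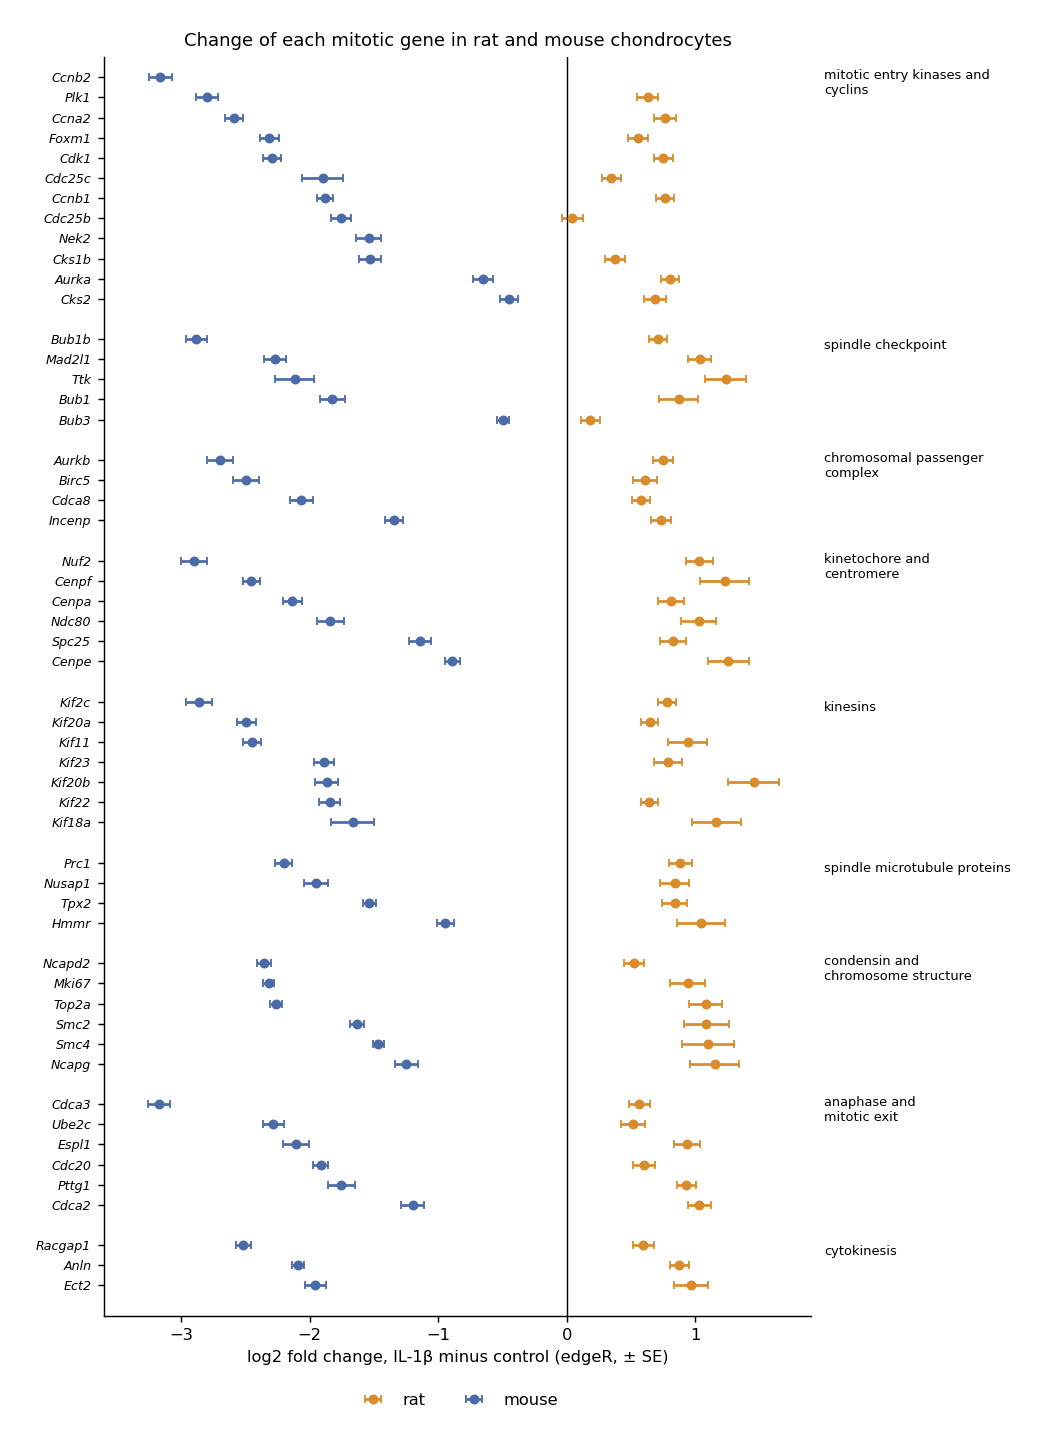
The horizontal axis is the log2 fold change from control to IL-1β (edgeR, ± SE) for each member, rat in orange and mouse in blue, grouped by class. All mouse points lie left of 0 and all rat points lie right of 0, with Cdc25b within 1 SE of 0 in rat, and Ccnb2 and Nek2 have a mouse point only.

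The kinases and cyclins of mitotic entry had the smallest median change in rat. Of 10 members in rat, 9 rose (median 0.66, 0.61 with the offset), and all 12 in mouse fell (median -1.89). Cdk1 (in mouse at chr10:69335146-69352938, minus strand, GRCm38), the kinase that drives entry into mitosis, stood at 76.9, 71.9 and 81.2 FPKM in RC and 126, 134 and 131 in RM (log2 fold change 0.75 ± 0.072 (SE), edgeR adjusted P = 2.47e-05). It stood at 14.1, 14.1 and 13.3 FPKM in MC and 2.23, 2.37 and 2.38 in MM (log2 fold change -2.29 ± 0.067 (SE), edgeR adjusted P = 1.67e-39). The spread within a group was small beside both shifts, and the difference between the species was -3.04 ± 0.090 (adjusted P = 3.44e-14). Its partner Ccnb1, cyclin B1 (chr13:100778650-100786570, minus strand), was at 39.5, 37.6 and 40.3 FPKM in RC and 65.7, 66.6 and 69 in RM (log2 fold change 0.76 ± 0.069). In MC it was at 18.7, 19.5 and 18.8 FPKM and in MM at 4.02, 4.15 and 4.63 (log2 fold change -1.88 ± 0.060). Ccnb1 thus shifted about as Cdk1 did in rat and somewhat less in mouse. Of the 50-base stretches of mouse Ccnb1 transcripts, 23.4% also occur in other transcripts, among them its pseudogene, so its counts are less certain.

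Cks2, a small subunit that binds Cdk1, had the smallest difference of its class. Its FPKM was 61.4, 52.9 and 61.5 in RC and 89.4, 96.9 and 99.4 in RM (log2 fold change 0.69 ± 0.086 (SE), edgeR adjusted P = 0.000165). The offset took this rise to 0.43 ± 0.077. In mouse it was 49.9, 54.1 and 55.8 in MC and 33.3, 30.4 and 32.6 in MM (log2 fold change -0.45 ± 0.069 (SE), edgeR adjusted P = 3.23e-08). It was the most abundant member in both mouse groups, and 29.7% of its 50-base stretches occur in other transcripts as well. Its paralog Cks1b fell by more in mouse (-1.53 ± 0.083) and rose by less in rat (0.37 ± 0.080). The log2 fold changes of the 2 B-type cyclins in mouse were -3.16 ± 0.089 for Ccnb2 and -1.88 ± 0.060 for Ccnb1. The kinase Plk1 rose in rat (0.63 ± 0.080) and fell in mouse (-2.80 ± 0.085). Aurka, which acts at the spindle poles, rose in rat (0.80 ± 0.069) and fell by 0.65 ± 0.080 in mouse. Foxm1, a transcription factor of late cell cycle genes, changed by 0.55 ± 0.078 in rat and -2.31 ± 0.077 in mouse. Cdc25b, one of the phosphatases that activate Cdk1, overlapped between RC (21.8, 22.4 and 24.1 FPKM) and RM (21.8, 23.9 and 25.3 FPKM), with an edgeR adjusted P = 0.728. In mouse it fell (-1.76 ± 0.077), as did Cdc25c (-1.90 ± 0.16), which rose in rat (0.34 ± 0.075, and 0.21 with the offset). Cyclin A2 (Ccna2) changed by 0.76 ± 0.084 in rat and -2.59 ± 0.070 in mouse, and the centrosome kinase Nek2, without a rat row, by -1.54 ± 0.095 in mouse.

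Of the condensin and chromosome genes, 6 of 6 rose in rat (median 1.08) and 6 of 6 fell in mouse (median -1.95). This rat median was the highest of the 9 classes, but with the offset it was 0.73, below that of the kinetochore genes (0.81). With the offset, the SD between the changes of the 6 genes in rat went from 0.235 to 0.0918. In rat this SD rose for the kinetochore genes (0.19 to 0.221) and the chromosomal passenger complex (0.0872 to 0.116). It fell in the remaining classes. Mki67 (chr7:135689784-135716361, minus strand), which coats mitotic chromosomes and is the usual marker of proliferating cells, had 50.9, 32.4 and 37.7 FPKM in RC and 74.8, 81.1 and 78.6 in RM (log2 fold change 0.94 ± 0.14 (SE), edgeR adjusted P = 0.000399). Its mouse values were 28.1, 27.9 and 30.8 in MC and 5.29, 4.33 and 4.68 in MM (log2 fold change -2.32 ± 0.045 (SE), edgeR adjusted P = 1.79e-49). RC1 was the highest rat control, and RC2 the lowest. Ncapd2 (chr6:125168007-125191701, minus strand), a regulatory subunit of condensin I, was at 27, 31 and 30.1 FPKM in RC and 40.3, 42 and 45.4 in RM (log2 fold change 0.52 ± 0.079). It was at 20.1, 18.9 and 21 FPKM in MC and 3.14, 3.3 and 3.22 in MM (log2 fold change -2.35 ± 0.053). It had the smallest rise of the class in rat and the largest fall in mouse, and its rat value was 0.52 with the offset.

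Ncapg, another subunit of condensin I, had the widest spread of any member among the rat controls, 1.96-fold from lowest to highest. It was at 11.8, 6.03 and 7.96 FPKM in RC and 17.7, 21 and 19.2 in RM (log2 fold change 1.15 ± 0.19 (SE), edgeR adjusted P = 0.00108). The offset took this change to 0.76 ± 0.087. In mouse it was at 3.72, 3.78 and 4.4 FPKM in MC and 1.36, 1.31 and 1.47 in MM (log2 fold change -1.25 ± 0.090 (SE), edgeR adjusted P = 1.3e-19). The ATPase subunits Smc2 and Smc4 rose by 1.08 and 1.10 in rat (0.71 and 0.67 with the offset) and fell by 1.63 and 1.47 in mouse, between Ncapg and Ncapd2. Top2a, the topoisomerase that untangles sister chromatids, changed by 1.08 ± 0.13 in rat and -2.26 ± 0.046 in mouse.

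All 6 kinetochore and centromere genes rose in rat (median 1.03, 0.81 with the offset) and all 6 fell in mouse (median -1.99). Cenpa (chr5:30666777-30674830, plus strand), the histone variant that marks the centromere, was at 3.89, 3.62 and 3.93 FPKM in RC and 6.51, 6.83 and 6.91 in RM (log2 fold change 0.81 ± 0.10 (SE), edgeR adjusted P = 0.000138). In mouse it went from 9.5, 9.21 and 9.55 FPKM in MC to 1.77, 1.8 and 1.73 in MM (log2 fold change -2.14 ± 0.072 (SE), edgeR adjusted P = 2.67e-36). The libraries of each group lay close together, and the species difference was -2.95 ± 0.11 (adjusted P = 3.77e-13). Spc25, a subunit of the Ndc80 complex that holds microtubules, was at 23.4, 19.1 and 21 FPKM in RC and 34.1, 39.2 and 40.6 in RM (log2 fold change 0.83 ± 0.10, and 0.37 ± 0.097 with the offset). Its values in mouse were 8.43, 8.92 and 8.3 FPKM in MC and 3.02, 3.11 and 3.46 in MM (log2 fold change -1.14 ± 0.088). The 3 subunits of this complex among the members fell unequally in mouse. Nuf2 fell by 2.90, Ndc80 by 1.84 and Spc25 by 1.14 on the log2 scale, with SEs of 0.10, 0.10 and 0.088. In rat these 3 changed by 1.03, 1.02 and 0.83, and with the offset by 0.66, 0.76 and 0.37. Spc24, another subunit, was measured but belongs to the wider list of mitotic genes. Without the offset it rose by 0.43 ± 0.12 in rat, less than the 3 did in that fit. Its rat value with the offset is not given here. In mouse it changed by -3.55 ± 0.15, a larger fall than those of the 3. The large kinetochore proteins also parted in mouse, with Cenpf at -2.45 ± 0.064 and the motor Cenpe at -0.89 ± 0.057, while both lay near the top in rat (1.23 ± 0.19 and 1.26 ± 0.16). No test between genes was made.

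Among the 5 checkpoint genes, 4 rose in rat (median 0.87, 0.66 with the offset, which called all 5 higher) and 5 fell in mouse (median -2.12). Bub1b (chr2:118598211-118641591, plus strand), which encodes BubR1, an inhibitor of the anaphase-promoting complex, had 15.3, 15.1 and 14.6 FPKM in RC and 23.9, 25.6 and 25 in RM (log2 fold change 0.71 ± 0.070 (SE), edgeR adjusted P = 3e-05). It had 13.4, 13 and 14 FPKM in MC and 1.44, 1.57 and 1.53 in MM (log2 fold change -2.88 ± 0.079 (SE), edgeR adjusted P = 4.43e-41). Of all members, its species difference had the smallest P (-3.59 ± 0.093, adjusted P = 7.52e-15). Bub3, its binding partner, stood at 28, 29.8 and 31.6 FPKM in RC and 34.6, 33 and 35 in RM (log2 fold change 0.18 ± 0.074 (SE), edgeR adjusted P = 0.0778). The RM libraries were above the RC libraries without passing the test, and the offset gave 0.18 with an edgeR adjusted P = 0.0289. In mouse Bub3 stood at 13, 13.8 and 13.6 FPKM in MC and 8.14, 7.71 and 7.67 in MM (log2 fold change -0.50 ± 0.045 (SE), edgeR adjusted P = 2.35e-15). The kinases Ttk and Bub1 and the inhibitor Mad2l1 rose in rat by 1.24, 0.87 and 1.03 (0.97, 0.48 and 0.76 with the offset) and fell in mouse by 2.12, 1.83 and 2.27. Bub3 was the mildest of the 5 in both species.

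The 4 genes of the chromosomal passenger complex, which corrects faulty attachments and later marks the division plane, all rose in rat (median 0.67, 0.69 with the offset) and all fell in mouse (median -2.28). Its kinase Aurkb (chr11:69045647-69051664, plus strand) was at 13.8, 13.1 and 13.3 FPKM in RC and 21.2, 22.6 and 24.4 in RM (log2 fold change 0.75 ± 0.077 (SE), edgeR adjusted P = 4.08e-05). It was at 11, 11.4 and 11.1 FPKM in MC and 1.47, 1.49 and 1.28 in MM (log2 fold change -2.70 ± 0.10 (SE), edgeR adjusted P = 7.91e-34). The scaffold Incenp was at 22.5, 22.5 and 23.3 FPKM in RC and 34.6, 39.6 and 40.4 in RM (log2 fold change 0.73 ± 0.079). Its values were 18.5, 16.1 and 17.7 in MC and 5.61, 5.18 and 6.22 in MM (log2 fold change -1.35 ± 0.068). In rat the changes of the complex ran from 0.57 for Cdca8 (borealin) to 0.75 for Aurkb, and with the offset from 0.56 to 0.79 for the same genes. In mouse Birc5 (survivin) and Cdca8 fell by 2.50 and 2.07, between Aurkb and Incenp.

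All 7 kinesins rose in rat (median 0.78, 0.65 with the offset) and all 7 fell in mouse (median -1.89). Kif20a, which carries the passenger complex to the midzone, was at 48.5, 49.4 and 47.3 FPKM in RC and 74.9, 78.8 and 75.7 in RM (log2 fold change 0.64 ± 0.064 (SE), edgeR adjusted P = 3.34e-05). It was at 17.2, 20.2 and 17.4 FPKM in MC and 2.59, 2.65 and 2.77 in MM (log2 fold change -2.49 ± 0.073 (SE), edgeR adjusted P = 1.25e-39). Exons of Cdc23 cover 29.3% of its mouse exon length on the other strand, and whether the counting used strand is not given in the sources used here. Such overlap reached 10% of the mouse exon length in 6 members (Kif20a, Ube2c, Ncapg, Cdc25c, Ccna2 and Prc1), and 5% or more of the 50-base stretches were shared in 5 (Cks2, Ccnb1, Cdc20, Plk1 and Cks1b). Kif22, which pushes chromosome arms away from the poles, was at 36.4, 36.6 and 35.9 FPKM in RC and 56.3, 57.3 and 58.2 in RM (log2 fold change 0.64 ± 0.065). In mouse it was at 7.76, 8.04 and 8.71 FPKM in MC and 1.76, 1.9 and 1.98 in MM (log2 fold change -1.84 ± 0.082). The RC libraries were nearly level for Kif22, and the groups did not overlap. Kif20b had the largest rise of any member in rat, 1.45 ± 0.20, and 1.05 with the offset. Kif2c, which takes microtubules apart at the centromere, fell the most of the class in mouse (-2.86 ± 0.10), and Kif18a, a length regulator at plus ends, the least (-1.67 ± 0.17). Kif11, which slides spindle poles apart, changed by 0.94 ± 0.15 in rat (0.60 with the offset) and -2.45 ± 0.072 in mouse. Kif23, a motor of the midzone and midbody, changed by 0.78 ± 0.11 and -1.89 ± 0.078.

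The 4 other spindle microtubule genes all rose in rat (median 0.86, 0.69 with the offset) and all fell in mouse (median -1.74). Prc1, which bundles microtubules of the midzone and whose promoter is printed above, had 68.9, 54.2 and 60.9 FPKM in RC and 110.3, 116 and 117 in RM (log2 fold change 0.88 ± 0.088 (SE), edgeR adjusted P = 3.36e-05). It had 8.17, 8.16 and 8.68 FPKM in MC and 1.53, 1.57 and 1.36 in MM (log2 fold change -2.20 ± 0.067 (SE), edgeR adjusted P = 1.36e-38). Hmmr, a microtubule protein that is also a hyaluronan receptor, was at 38.7, 20.0 and 29.2 FPKM in RC and 59.7, 65.5 and 58 in RM (log2 fold change 1.04 ± 0.18 (SE), edgeR adjusted P = 0.00148). RC2 was far below RC1 for Hmmr, and the offset took its rise to 0.71. In MC Hmmr was at 8.77, 9.39 and 9.21 FPKM and in MM at 4.02, 3.77 and 3.92 (log2 fold change -0.94 ± 0.064 (SE), edgeR adjusted P = 6.06e-21). Its fall was the smallest of the class, while Tpx2, which activates Aurka, fell by 1.54 and Nusap1, which links microtubules to chromosomes, by 1.95. In rat Tpx2 and Nusap1 rose, Tpx2 by 0.84 ± 0.10 and Nusap1 by 0.84 ± 0.11.

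**Figure D4:**
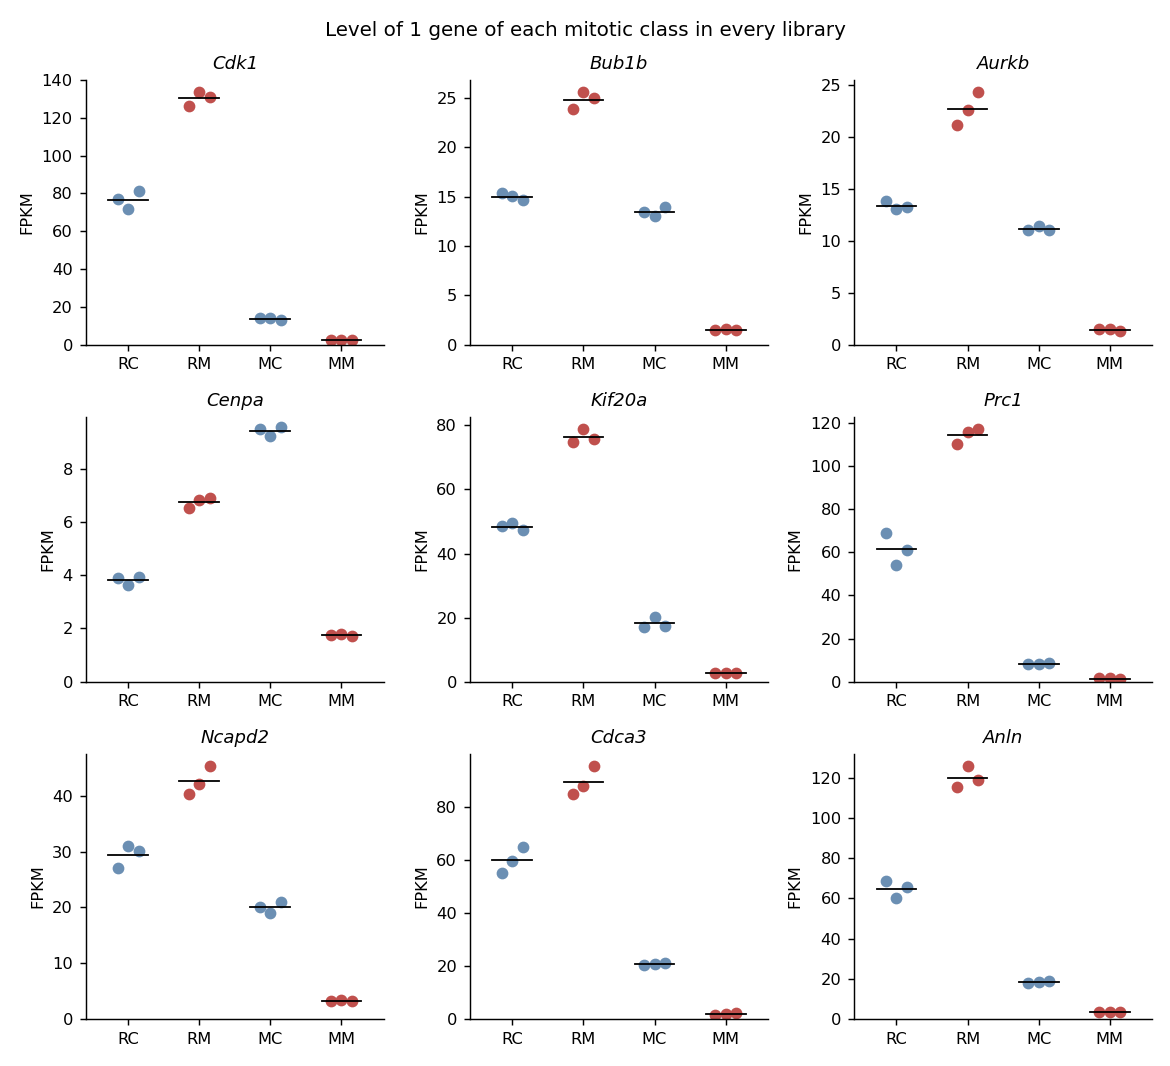
FPKM in each library (1 point each, with the mean as a bar) of the member with the smallest P of the species difference in each of the 9 classes, for the groups RC, RM, MC and MM. In all 9 panels the RM points lie above the RC points and the MM points lie below the MC points.

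The 6 genes of anaphase and mitotic exit rose in rat (median 0.76, 0.76 with the offset) and fell in mouse (median -2.01). Cdca3, which takes part in the destruction of mitotic regulators, fell the most of all members in mouse, from 20.2, 20.7 and 21 FPKM in MC to 1.48, 2 and 2.22 in MM (log2 fold change -3.17 ± 0.086 (SE), edgeR adjusted P = 2e-41). In rat it was at 55.1, 59.5 and 64.7 FPKM in RC and 84.9, 87.8 and 95.2 in RM (log2 fold change 0.56 ± 0.082 (SE), edgeR adjusted P = 0.000418). Cdca2, which brings a phosphatase to chromosomes at mitotic exit, was at 10.6, 9.21 and 9.47 FPKM in RC and 18.8, 21.7 and 20.0 in RM (log2 fold change 1.03 ± 0.088). It was at 4.59, 4.64 and 4.42 FPKM in MC and 1.73, 1.61 and 1.55 in MM (log2 fold change -1.20 ± 0.090). Cdca2 had the smallest fall of the class in mouse. Its rise in rat was the largest of the class without the offset, and with it Espl1 (1.00) was above Cdca2 (0.95). Cdc20 and Ube2c, an activator and an enzyme of the anaphase-promoting complex, rose by 0.60 and 0.51 in rat and fell by 1.91 and 2.28 in mouse. Exons of Tnnc2 cover 22.8% of the mouse exon length of Ube2c on the other strand. Pttg1 (securin) and Espl1 (separase), an inhibitor and its protease, changed by 0.93 ± 0.075 and 0.93 ± 0.10 in rat (0.87 and 1.00 with the offset) and by -1.75 ± 0.10 and -2.11 ± 0.10 in mouse.

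The 3 cytokinesis genes rose in rat (median 0.87, 0.68 with the offset) and fell in mouse (median -2.09). Anln (chr9:22332012-22389188, minus strand), anillin, a scaffold of the contractile ring, was at 68.6, 60.3 and 65.5 FPKM in RC and 116, 126 and 119 in RM (log2 fold change 0.87 ± 0.071 (SE), edgeR adjusted P = 8.44e-06). It was at 18, 18.1 and 18.9 FPKM in MC and 3.53, 3.5 and 3.62 in MM (log2 fold change -2.09 ± 0.045 (SE), edgeR adjusted P = 4.82e-47). Ect2, the exchange factor that switches on RhoA at the division plane, was at 21.4, 14 and 16.2 FPKM in RC and 32.5, 35.4 and 33.8 in RM (log2 fold change 0.96 ± 0.13). Its mouse values were 8.89, 8.58 and 9.76 FPKM in MC and 1.62, 1.98 and 2.21 in MM (log2 fold change -1.96 ± 0.080). The groups were apart for both genes in both species. Racgap1, which forms a complex with the kinesin Kif23 and binds Ect2, rose by 0.59 in rat and fell by 2.52 in mouse.

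Levels before stimulation were ordered in a similar way in both species. Over the 51 shared members, log2 control FPKM in rat and mouse had Pearson's r = 0.712 and Spearman's rho = 0.663. FPKM were set within each table, so only the order is compared. In RC, Cdk1 was highest (76.7 ± 4.69 FPKM, SD, n = 3), followed by Anln (64.8 ± 4.16), Prc1 (61.3 ± 7.36), Cdc20 (61.0 ± 5.72) and Cdca3 (59.8 ± 4.80). Neighbours in this order after Cdk1 did not differ beyond their spread. In MC, Cks2 was highest (53.3 ± 3.06), followed by Cdc20 (47.2 ± 0.94), Ccnb2 (37.0 ± 1.07) and Cks1b (31.2 ± 0.26), each apart from the next by more than its spread. In MM, Cks2 remained at 32.1 ± 1.49 FPKM, while the next, Cdc20, was at 10.4 ± 0.91. Kif18a was lowest in MC, at 0.94 FPKM on average, and at 0.244 in MM.

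A wider list of mitotic genes outside the 53 moved in the same directions for the most part. In rat, 60 of 68 rose and 0 fell (median 0.82), where 18.3% of all genes were called higher and 16.8% lower. In mouse 59 of 70 fell, 6 rose and 5 were not called (median -1.55), where 37.7% of all genes were called lower and 37.4% higher. The difference was lower in mouse for 61 of 66, against 32.3% of all genes. The 3 with the smallest P were Tacc3, a spindle protein (-3.05 ± 0.090), the kinase Pbk (-4.06 ± 0.17) and the kinase Melk (-3.53 ± 0.15). Chosen after their values were seen, Gtse1, Zwint and Kif2a were the 3 of the 66 with a difference higher in mouse. Gtse1, a microtubule protein that also restrains p53, rose in both species (0.85 ± 0.084 in rat and 1.31 ± 0.056 in mouse). It stood at 11.4, 11.5 and 12.9 FPKM in MC and 22.9, 25 and 25.7 in MM. Zwint, a kinetochore protein, rose in mouse (1.02 ± 0.044) and had 0.13 ± 0.072 in rat without passing the test. Kif2a, a microtubule depolymerase also used by non-dividing cells, changed by 0.37 ± 0.093 in rat and 0.89 ± 0.055 in mouse.

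Genes of DNA replication, the step before mitosis, gave 36 of 38 higher in rat (median 0.75), against 18.3% of all genes. In mouse 33 of 37 were lower (median -1.11), against 37.7% of all genes. Named after their values were seen, the 2 called higher in mouse were the sliding clamp gene Pcna (log2 fold change 0.21 ± 0.041) and the primase subunit gene Prim2 (0.25 ± 0.088). Their mean FPKM, which lacks the scaling between libraries used in the fit, was no higher in MM than in MC, with 41.8 against 43.8 for Pcna and 2.79 against 2.84 for Prim2. The difference was lower in mouse for 37 of 37, against 32.3% of all genes. Its median was -1.81, beside -2.86 for the mitotic members. Without the offset, the medians of the mitotic members and the replication genes in rat lay close together (0.81 and 0.75). In mouse they did not (-1.96 and -1.11). With the offset the rat median of the members was 0.67, and that of the replication genes was not computed. Whether the lists differ was not tested.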

How the data were processed

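For each species, the authors deposited 1 table of RNA-seq values for 6 libraries. It holds raw counts per Ensembl gene and FPKM that the authors made from these counts. Per the labels' processing notes, HISAT2, HTSeq 0.11.2 and the builds GRCm38 and Rnor_6.0 were used, and no strand setting is named. Depth was 16841580 to 25903459 counts per library, so 3 counts, the limit set by a count of 0, correspond to 0.116–0.178 CPM. This floor covers counting error only.

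Groups were taken from the sample titles. The members, their classes and the other gene lists were chosen with earlier results of these data known. The counts of each species were fitted with edgeR 4.0.16 in R 4.3.3 (filterByExpr, TMM scaling, glmQLFit and glmQLFTest). Benjamini-Hochberg adjustment of P covered all genes tested. The difference between the species was fitted over all 4 groups on the genes shared by symbol, with TMM set within each species. The study names P under 0.05, a fold change of 0.85, read here as a log2 value, and an FPKM of at least 1 in any library. The text gives values in every library for the members of each class with the smallest P and the smallest size of the species difference, and for Mki67, Cdk1 and Ccnb1. It names the 3 other mitotic genes with the smallest P.

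The base composition offset was a loess curve (span 0.3) set per library against the G and C content of the mouse coding sequence. It was fitted to each gene's deviation from its mean log2 CPM over the 6 libraries of its species. Genes with a mean log2 CPM above 3 were used (8500 in rat, 9559 in mouse). The curve was then applied to the 11596 rat and 13111 mouse genes tested with a value. As the mean spans controls and models, the offset also removes any change with IL-1β that follows G and C content. The offset was chosen after seeing the data. Transcript overlaps and 50-base stretches were computed from GENCODE M21. For 49 of the 53 members, the length that the mouse FPKM imply lay within 1 base of the merged exons there. Overlaps in rat were not analysed here. Replicates of a group differed by more than sampling noise (chi-square per gene 6.07–27.8 in rat and 1.90–2.49 in mouse), so none was a copy. The biological coefficient of variation in the edgeR fits was 0.106 in rat and 0.032 in mouse. The very small P values in mouse rest on this low spread between libraries.

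Alternatives were DESeq2 1.42.0, other scalings, no filter, limma 3.58.1 on log2(FPKM + 1) and log2(FPKM + 0.1), a replicate block and leaving out each library. The fits were tested on simulated data with a set of genes changed by 1.5 on the log2 scale. Recovery of smaller changes was not tested, and the largest rise of a rat member was 1.45. The simulation gave all genes of a species the same biological coefficient of variation and no trend with G and C content. It changed few genes, in equal numbers up and down, whereas 11085 of 14774 mouse genes were called in the real data. It therefore cannot show how often calls were false in these data. Of the changed genes that passed the filter, edgeR recovered 99.49% in the rat simulation (13289 genes run, 3.9% of calls false), 98.99% in the mouse simulation (14700 genes, 7.55%) and 98.35% for the species difference (10912 genes, 2.3%).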

Additional observations from a re-analysis of the deposited data

Results flagged for a closer look

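For all 51 members tested in both species, the response to IL-1β differed between rat and mouse by a test of the difference itself (the log2 fold change in mouse less that in rat, edgeR adjusted P under 0.05). The same test called 32.3% of all genes lower in mouse. Among the genes of mitotic entry, the difference was -3.43 for Plk1, -3.35 for Ccna2, -3.04 for Cdk1, -2.86 for Foxm1, -2.64 for Ccnb1, -2.24 for Cdc25c, -1.90 for Cks1b, -1.80 for Cdc25b, -1.46 for Aurka and -1.14 for Cks2. Among condensin and chromosome genes, the difference was -3.34 for Top2a, -3.26 for Mki67, -2.87 for Ncapd2, -2.72 for Smc2, -2.56 for Smc4 and -2.40 for Ncapg. Among kinetochore and centromere genes, the difference was -3.93 for Nuf2, -3.68 for Cenpf, -2.95 for Cenpa, -2.86 for Ndc80, -2.14 for Cenpe and -1.97 for Spc25. Among checkpoint genes, the difference was -3.59 for Bub1b, -3.35 for Ttk, -3.30 for Mad2l1, -2.69 for Bub1 and -0.68 for Bub3. In the chromosomal passenger complex, the difference was -3.44 for Aurkb, -3.11 for Birc5, -2.64 for Cdca8 and -2.08 for Incenp. Among the kinesins, the difference was -3.64 for Kif2c, -3.39 for Kif11, -3.32 for Kif20b, -3.14 for Kif20a, -2.83 for Kif18a, -2.67 for Kif23 and -2.48 for Kif22. Among the other spindle microtubule genes, the difference was -3.08 for Prc1, -2.79 for Nusap1, -2.37 for Tpx2 and -1.99 for Hmmr. Among genes of anaphase and mitotic exit, the difference was -3.73 for Cdca3, -3.04 for Espl1, -2.80 for Ube2c, -2.68 for Pttg1, -2.51 for Cdc20 and -2.23 for Cdca2. Among cytokinesis genes, the difference was -3.11 for Racgap1, -2.97 for Anln and -2.92 for Ect2. Bub3 and Cks2 lay closest to 0 and Nuf2 and Cdca3 farthest from it. Species, animals and tables all change together in this contrast and cannot be told apart.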

How the results depend on the processing

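The counts of members called at an adjusted P under 0.05 (49 higher in rat, 53 lower in mouse and 51 lower in mouse for the species difference) did not change when any 1 library was left out. Leaving out 1 library gave rat medians of 0.75 to 0.87, mouse medians of -2.03 to -1.94, median differences of -2.95 to -2.78, and shares of the library in model over control of 1.73–1.92 in rat and 0.218–0.224 in mouse. It gave 56 to 60 other mitotic genes higher in rat, 58 to 60 lower in mouse, and 15 to 26 rat members past the criteria of the study. By those criteria the 49 rat members became 22, and with a log2 fold change of at least 1 they became 14. The base composition offset gave a rat median of 0.67, a median difference of -2.68 and 8 rat members past the criteria of the study. RC1 as the only control gave 0.69 and 7. In mouse, library size alone shifted the median of all genes by -0.28 and gave a members' median of -2.24, and a median difference of -3.16. The fold changes of limma on log2(FPKM + 1), which understate the change of low genes, gave a mouse median of -1.76 and a difference of -2.68, and on log2(FPKM + 0.1) a mouse median of -2.18. With TMM-scaled library sizes the mouse share ratio was 0.268 in place of 0.221. For single genes in rat, Cdc25b ranged from -0.00778 to 0.099 when 1 library was left out and turned below 0 without RC1 (-0.00378) and without RM3 (-0.00778), without a call in any. Bub3 was called at 0.18 with the offset, and its log2 fold change with RC1 alone was 0.27.

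Replicate numbers recur in each group, but libraries of the same number did not deviate together (correlations of 0.0241, -0.0977 and 0.0849 in rat and 0.00124, 0.0149 and 0.00482 in mouse). A fit with the replicate number as a block called 49, 53 and 51 members, with medians of 0.81, -1.95 and -2.86.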

Other observations

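Of 12 genes of the DREAM and MuvB complexes, which repress or activate mitotic genes through the CHR element, 6 rose in rat and 0 fell (median 0.37), where 18.3% of all genes were called higher and 16.8% lower. In mouse 9 fell, 2 rose (E2f4 0.46 ± 0.055 and E2f5 0.35 ± 0.11, named after their values were seen) and Lin54 was not called (median -0.32), where 37.7% of all genes were called lower and 37.4% higher. Mybl2, which joins MuvB to activate mitotic genes, changed by 1.07 ± 0.075 in rat and -1.50 ± 0.16 in mouse. The repressor subunit Rbl1 (p107) changed by 0.85 ± 0.13 and -1.62 ± 0.091, whereas Rbl2 (p130) had 0.05 ± 0.084 without a call in rat and -0.26 ± 0.062 in mouse. The species difference was lower in mouse for 9 of the 12 genes and higher for E2f4, against 32.3% and 31.4% of all genes.

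Of the cyclins and kinases of G1 and the inhibitors of the cell cycle kinases, 5 were higher and 4 lower of 14 in rat, and 4 were higher and 9 lower of 15 in mouse, beside the shares of all genes given above. The genes named here were chosen after their values were seen. The inhibitor Cdkn1c (p57) had the largest change of the list in both species and fell in each (-2.13 ± 0.079 in rat and -3.66 ± 0.082 in mouse). The inhibitor Cdkn2c (p18) rose in rat (0.44 ± 0.12) and fell in mouse (-1.19 ± 0.055). The kinase Cdk6 rose in both (0.36 ± 0.087 and 1.03 ± 0.071), and cyclin D3 (Ccnd3) rose in mouse (0.52 ± 0.039) and had -0.21 ± 0.091 in rat without a call. The inhibitor Cdkn1a (p21) rose in mouse (2.59 ± 0.030) and had 0.03 ± 0.10 in rat (edgeR adjusted P = 0.858). It stood at 56.3, 58 and 54 FPKM in MC and 278, 278 and 281 in MM. Cyclin D1 (Ccnd1) fell in mouse (-1.56 ± 0.034) and had -0.07 ± 0.067 in rat (edgeR adjusted P = 0.479). Cyclin E1 (Ccne1) rose in rat (0.64 ± 0.087) and fell in mouse (-1.27 ± 0.10). All changes are log2 fold changes from control to IL-1β ± SE.

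The 33 members with TTTGAA in the rat promoter window had median log2 fold changes of 0.88 in rat (32 with a row) and -2.07 in mouse. The 12 matched members without it had 0.78 (11 with a row) and -1.79. With TTTGAA or TTCGAA the medians were 0.86 in rat and -1.96 in mouse, and without either 0.80 and -1.85. For CCAAT the order was reversed, with 0.82 and -1.93 where it was present and 0.87 and -2.09 where it was absent. Mouse promoters were not searched. These are given as a description, without a test.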
